A study of Mus musculus with 4 samples.

Results

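The 7 hormone genes described here are Ins1 (ENSMUSG00000035804), Ins2 (ENSMUSG00000000215), Iapp (ENSMUSG00000041681), Gcg (ENSMUSG00000000394), Sst (ENSMUSG00000004366), Ppy (ENSMUSG00000017316) and Pyy (ENSMUSG00000017311). They were picked by symbol from the 32227 genes of the count matrices, without use of their values, and each symbol has 1 row. Islets from the pancreas of Myt3IM/IM and control mice were dissociated, and single cells were sequenced in droplets. Each droplet gives its RNA a barcode, and each captured molecule carries a unique molecular identifier (UMI). Myt3IM carries a short insertion, made with CRISPR-Cas9, that disrupts an upstream open reading frame of Myt3 (St18), and mutants and controls were bred as homozygotes for the mutant and the WT allele. The insertion is in every cell of the animal, and the methods state that each sample pools islets of several males and females. The sample labels call the mice adult and give a normal diet and PIPseq, whereas the methods give HFD-fed mice and inDrop-Seq, and the files do not settle which holds. Library control 1 was not analysed, so mutant 1 and mutant 2 stand against a single library, control 2, which also has a batch label of its own. Genotype, batch label and depth cannot be told apart in these libraries, and no test between genotypes was possible.

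Islet hormones are made as prohormones, stored in granules and secreted. Ins1 and Ins2 are the paired mouse insulin genes and Iapp encodes amylin, which β cells store and release with insulin. Gcg encodes proglucagon and marks α cells, Sst encodes somatostatin and marks δ cells, and Ppy encodes pancreatic polypeptide and marks PP cells. Pyy encodes peptide YY, a relative of Ppy that is made in the gut and in several islet cell types, and no gene starts between Ppy and Pyy in the RefSeq table of GRCm38. Because hormone transcripts are so abundant, lysed cells can leave hormone RNA in the suspension that is captured with any cell, and this is called free hormone RNA below.

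Ins1 and Ins2 are so alike that reads from one could be counted for the other, which bears on their ratio. The ends of their coding sequences are shown for this reason, 5′ to 3′ up to the stop codon, from the GENCODE vM21 transcripts of GRCm38. Capitals mark bases that differ or have no counterpart in the other gene.
Ins1: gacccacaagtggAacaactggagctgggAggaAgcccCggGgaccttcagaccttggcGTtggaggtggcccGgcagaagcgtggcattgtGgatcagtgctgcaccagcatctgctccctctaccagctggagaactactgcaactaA
Ins2: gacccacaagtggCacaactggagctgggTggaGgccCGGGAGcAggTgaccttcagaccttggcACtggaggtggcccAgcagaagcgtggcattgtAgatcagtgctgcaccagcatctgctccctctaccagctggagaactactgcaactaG
The coding sequences of 327 and 333 bases were identical at 302 of 327 aligned positions (92.4%), and the longest run shared by the transcripts was 56 bases. For Ppy and Pyy, 61.6% of 276 aligned coding positions were identical and the longest shared run was 10 bases. How reads that fit both insulin genes were counted is not given in the sources used here, so the split between Ins1 and Ins2 is uncertain.

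Values below are given in the order mutant 1, mutant 2 and control 2. The matrices held 3023, 2045 and 2308 barcodes with 8448466, 9013499 and 36985253 UMIs, and no barcode was shared between libraries. After filtering, 2940, 2040 and 2283 cells remained, with medians of 2427, 3851.5 and 14051 UMIs. Cells were clustered without the hormone genes, so that the classes do not rest on them. β-like cells numbered 2024, 1423 and 1811, α-like cells 357, 273 and 62, and δ-like cells 173, 129 and 63. The α-like and δ-like classes both carried markers of PP cells, and no cluster was named PP-like. The summed share of these markers was 0.117%, 0.111% and 0.0965% of α-like UMIs and 0.101%, 0.124% and 0.0728% of δ-like UMIs. In β-like cells it was 0.0291%, 0.0266% and 0.0176%. Endothelial-like, stellate or fibroblast-like and macrophage or leukocyte-like cells, together the non-endocrine cells, numbered 82, 56 and 77. Most mutant and most control β-like cells fell into different clusters, cluster 0 and cluster 4. Clusters 2 (243 cells, led by gut genes such as Tff3 and Zg16) and 5 (490 cells, led by Igkc and Igha) stayed unnamed. Both were rich in hormone UMIs and are not part of the non-endocrine cells. The hormones took 42.6%, 46.2% and 30.1% of the UMIs of cluster 2 and 50.5%, 58.0% and 66.2% of those of cluster 5. Cluster 5 held 11.1% of the cells of control 2.

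The 7 hormones together gave 50.1% and 51.7% of the UMIs of β-like cells in the mutant libraries and 60.9% in control 2. The gap between the mutant libraries was smaller than that between either and control 2. Among cells of 3000 to 6000 UMIs the order was the opposite, with 51.0%, 50.7% and 38.9% over 788, 577 and 199 cells. These control cells also had a median mitochondrial share of 1.97%, against 0.964% and 0.869% in the mutants. With the β-like cells of each library split by depth into 4 equal bins, control 2 was higher in every bin. The shares were 37.7%, 38.0% and 43.4% in the shallowest bin and 52.7%, 54.8% and 64.9% in the deepest. Median depth in the shallowest bin was 940.5, 1191.5 and 4625 UMIs. The direction of the difference thus was not the same in the fixed range and in the bins. Unnamed cluster 5, which is outside the β-like class, held 254 cells of control 2 with a median of 4179.5 UMIs, inside the fixed range. Hormones took 66.2% of the UMIs of these cells. In the mutants the cluster's median depth was 799 and 1223 UMIs, below the range. How far this class assignment lowers the control 2 values at 3000 to 6000 UMIs was not tested. Intervals for counting error alone are narrow at this depth, and the spread between animals is not known from them.

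**Figure D1:**
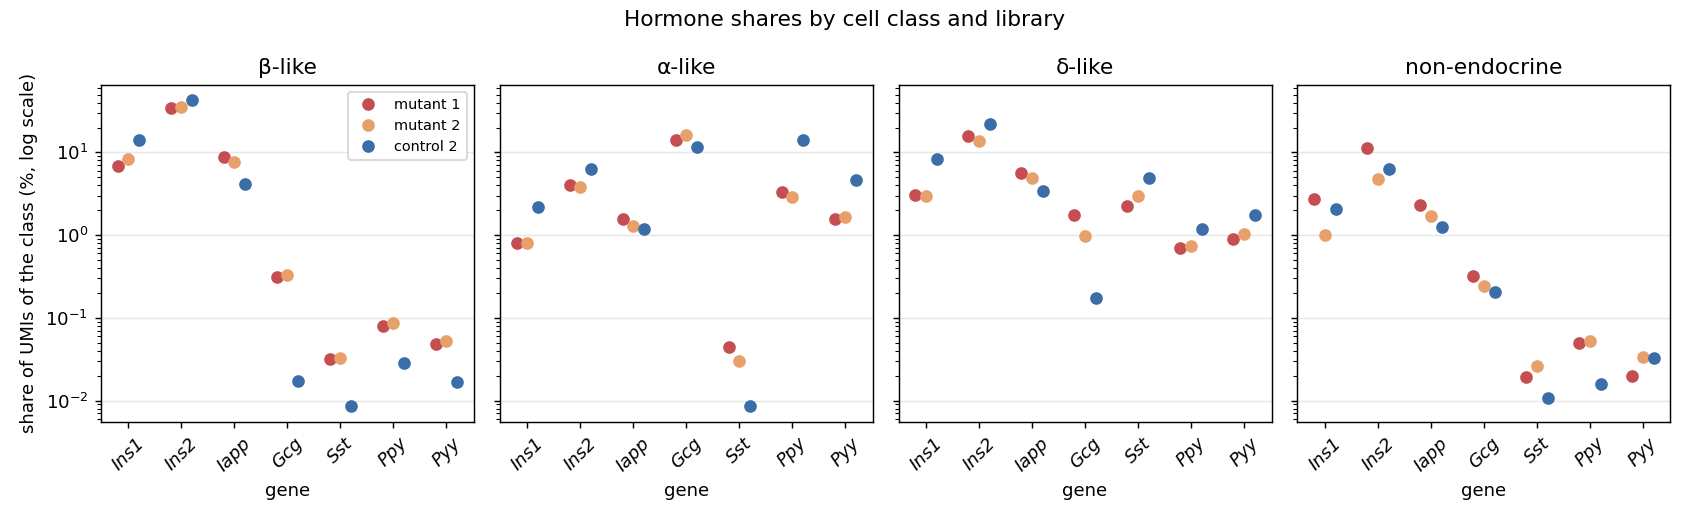
Share of UMIs (%, log scale) of each hormone gene in β-like, α-like, δ-like and pooled non-endocrine cells, 1 point per library. Ins2 leads in β-like cells in every library, Gcg in the α-like cells of both mutant libraries and Ppy in those of control 2.

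Ins2 was the most abundant hormone transcript of β-like cells. Its share of UMIs was 34.1%, 35.2% and 42.7%. Ins1 took 6.91%, 8.33% and 13.9%. Both insulin genes thus had lower shares in the mutant libraries, and the difference was larger for Ins1, whose log2 ratio to control 2 was -1.01 and -0.74, against -0.33 and -0.28 for Ins2. Iapp went the other way, at 8.68%, 7.64% and 4.199%, a log2 ratio of 1.05 and 0.86. Among β-like cells of 3000 to 6000 UMIs the ratio of Ins1 was -0.06 and 0.02 and that of Ins2 was 0.46 and 0.45, whereas Iapp stayed higher at 0.57 and 0.48. The hormones of other cell types also differed between this range and all depths in β-like cells. At 3000 to 6000 UMIs Gcg, at 2.76 and 3.17, and Sst, at 0.40 and 0.84, stayed higher but by less than over all depths. In this range Ppy was at -1.72 and -1.48 and Pyy at -0.42 and -0.15, against 1.46 and 1.60 and 1.53 and 1.64 over all depths, and a mean of 11 but a median of 1 Ppy UMI per cell in control 2 shows that few cells carry its sum.

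These ratios have to be read against all genes. In β-like cells 4736 genes averaged 20 CPM or more (CPM are UMI counts scaled to one common total). Of these, 12.6% were lower and 40.2% higher by over 0.5 on the log2 scale in both mutant libraries, and the median gene was higher by 0.39 and 0.38. All 7 hormones passed the CPM minimum, 1 (Ins1) was lower by this rule and 5 (Iapp, Gcg, Sst, Ppy and Pyy) were higher. Relative to the median gene, Ins1 was at -1.40 and -1.12, Ins2 at -0.72 and -0.66, and Iapp at 0.66 and 0.49. With edgeR's TMM scaling the background was 32.8% lower and 14.4% higher, 2 hormones (both insulin genes) were lower and 4 higher, and Iapp stood at 0.48 and 0.28.

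The ratio of Ins1 to Ins2 UMIs in β-like cells was 0.203, 0.237 and 0.326. Both mutant libraries lay below control 2, by more than they differed from each other. The ratio was higher in deeper cells. With the β-like cells of each library split by depth into 4 equal bins, from the shallowest to the deepest it went from 0.163 to 0.220 in mutant 1, from 0.199 to 0.260 in mutant 2 and from 0.2997 to 0.331 in control 2, with a dip to 0.193 in the second bin of mutant 2. At 3000 to 6000 UMIs it was 0.202, 0.214 and 0.288, so the libraries kept their order there. Iapp moved the other way with depth. Per Ins2 UMI it went from 0.409 to 0.227 in mutant 1, from 0.340 to 0.189 in mutant 2 and from 0.214 to 0.0813 in control 2. The shallowest bin of control 2 had a median of 4625 UMIs and lay close to bins 3 and 4 of the mutants, at 0.250 and 0.227 in mutant 1 and 0.221 and 0.189 in mutant 2.

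**Figure D2:**
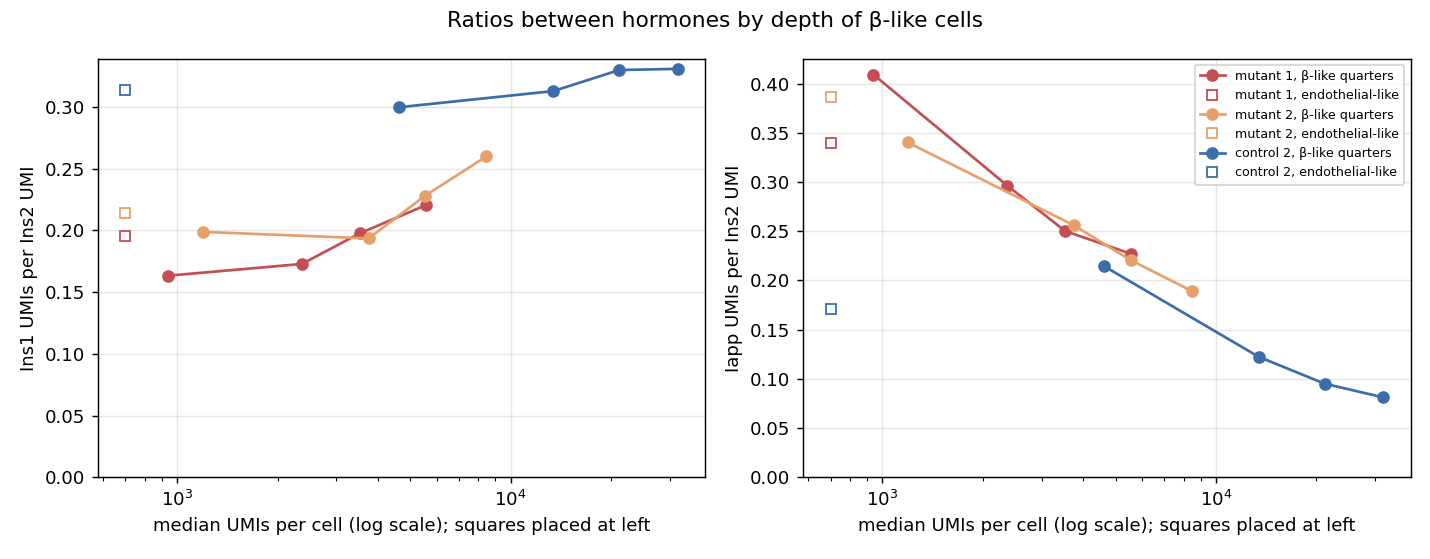
Ins1 (left) and Iapp (right) UMIs per Ins2 UMI against the median depth of each of 4 depth bins of β-like cells (circles, log scale), with the ratio in endothelial-like cells as squares placed at the left. Ins1 per Ins2 is higher in the 4 bins of control 2 than in any mutant bin, and Iapp per Ins2 is lower in deeper bins of each library.

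β-like cells differed in the split between Ins1 and Ins2 by more than counting gives. The variance of the Ins1 share of insulin UMIs was set against binomial counting, in cells with at least 50 insulin UMIs. It was 7.22, 10.4 and 66.3 times as large in β-like cells and 1.09, 0.692 and 1.48 times in endothelial-like cells. Where cells differ, this multiple rises with the insulin UMIs per cell, so it does not compare the spread between libraries or classes. Hormone UMIs per cell had medians of 1438, 2323 and 10093 in β-like and 95.5, 116 and 378 in endothelial-like cells. The median Ins1 to Ins2 ratio over β-like cells with at least 50 insulin UMIs was 0.181, 0.215 and 0.330. Its quartiles were 0.144 and 0.222 in mutant 1, 0.170 and 0.263 in mutant 2, and 0.254 and 0.393 in control 2. Single cells of the mutant and control libraries thus overlap in the ratio.

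Insulin RNA in cells that should make none was taken as a measure of free RNA. Doublets, which are droplets with several cells, were not removed and were not told apart from it. The median number of Ins2 UMIs per endothelial-like cell was 55, 74 and 225, per macrophage or leukocyte-like cell 39, 70 and 159, and per stellate or fibroblast-like cell 51, 58.5 and 141. In each library these classes lay closer to one another than to β-like cells, which had medians of 969.5, 1588 and 7073. The counts were not scaled to depth. In control 2 the median depth was 9187 UMIs in endothelial-like, 3932 in macrophage or leukocyte-like and 3220 in stellate or fibroblast-like cells. The α-like Ins2 medians of 57, 85 and 191.5 were near those of endothelial-like cells. The δ-like medians were 66, 121 and 205, above the endothelial-like ones in both mutant libraries and below it in control 2.

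**Figure D3:**
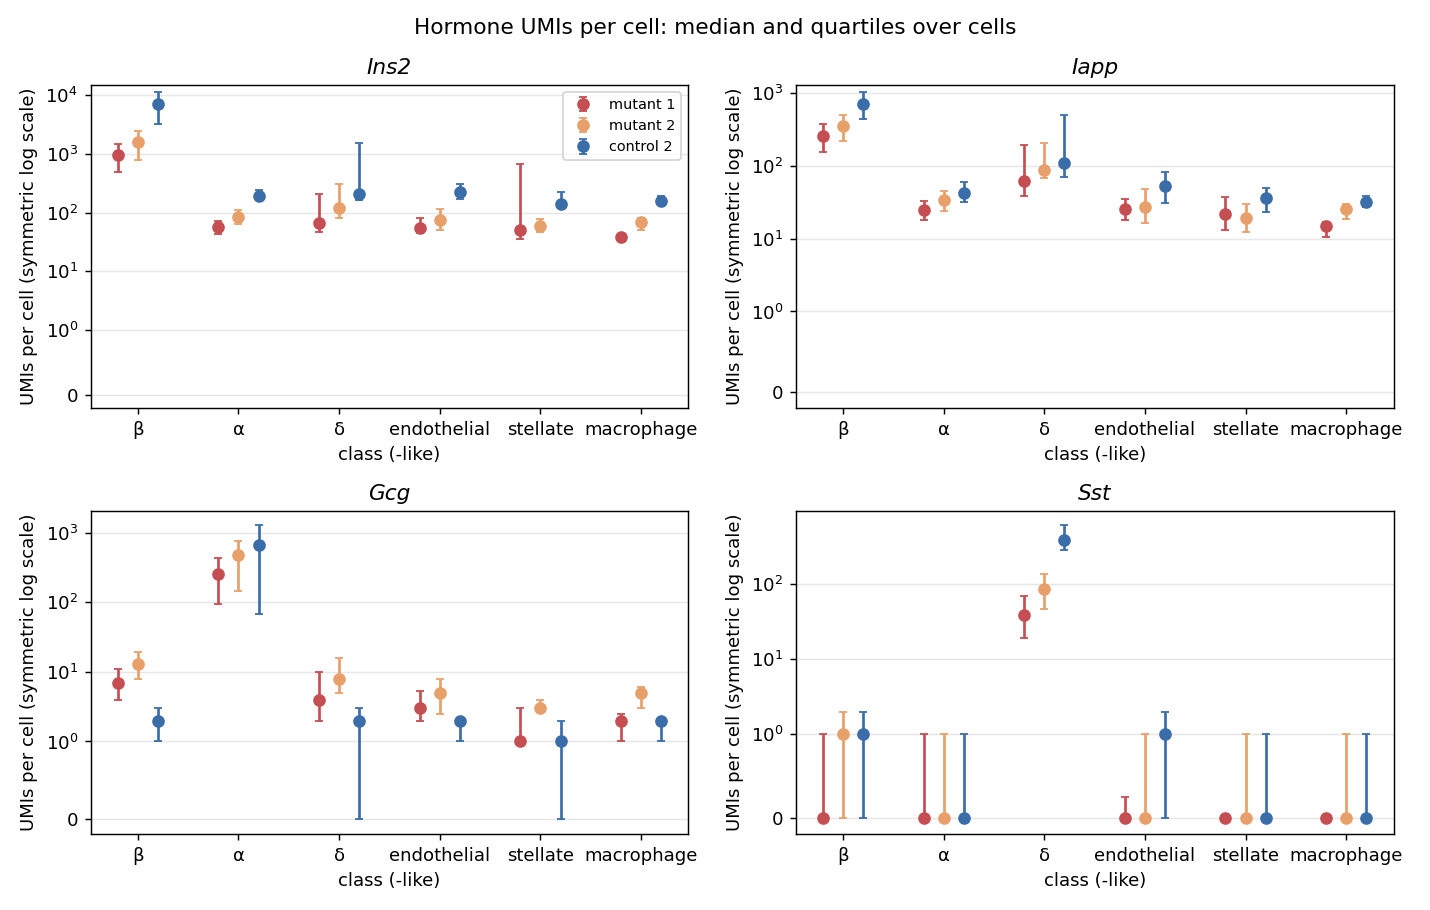
UMIs per cell of Ins2, Iapp, Gcg and Sst by class (symmetric log scale), as medians with quartiles over cells for each library. Ins2 in α-like cells lies at the level of the non-endocrine classes, and the median of Iapp in δ-like cells lies above that of endothelial-like cells.

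The Ins1 to Ins2 ratio of the other classes also differed by library. In endothelial-like cells it was 0.195, 0.214 and 0.314, in α-like cells 0.201, 0.213 and 0.340 and in δ-like cells 0.193, 0.212 and 0.374, beside the β-like values of 0.203, 0.237 and 0.326. The ratio was higher in control 2 in each of these classes. In stellate or fibroblast-like cells of mutant 1 the ratio was 0.279, but 7 of these 27 cells had more hormone UMIs than all other UMIs and weigh most in the sum.

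Such hormone-rich cells decide the pooled level. Over all non-endocrine cells the hormones took 16.7%, 7.86% and 9.84% of UMIs. Without the 25% of cells richest in insulin they took 5.75%, 5.94% and 5.05%, a choice made after the values were seen. The median over single cells was 6.997%, 5.85% and 5.60%. In these cells low in insulin, Ins2 was at 5.19%, 4.39% and 2.47% of the library's mean count per cell. The 9 genes listed for β cells, G6pc2, Slc2a2, Slc30a8, Pcsk1, Nkx6-1, Mafa, Ucn3, Chga and Chgb, were at a median of 5.88%, 3.88% and 3.64% of their β-like level there, beside 3.99%, 3.38% and 2.1% for Ins2. The genes at these medians had only 2 (Slc2a2), 4 (Chgb) and 8 (Slc30a8) UMIs in the cells low in insulin, so the medians rest on few counts. The cells were chosen for low insulin, so the choice itself lowers the Ins2 value, and these percentages are not a like comparison.

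Over all non-endocrine cells, Iapp stood at 20.8, 35.7 and 19.9 UMIs per 100 Ins2 UMIs, against 25.5, 21.7 and 9.83 in β-like cells. It was below the β-like value in mutant 1 and above it in mutant 2 and control 2. In mutant 1 the stellate or fibroblast-like class, with its hormone-rich cells, had 0.0997 Iapp UMIs per Ins2 UMI. Endothelial-like cells there had 0.340 and macrophage or leukocyte-like cells 0.391, both above the 0.255 of β-like cells. Gcg stood at 2.85, 4.99 and 3.24 per 100 Ins2 UMIs, against 0.909, 0.945 and 0.0405 in β-like cells. A single cell held 213 of the 451 Gcg UMIs of the non-endocrine cells of mutant 1, and another 930 of the 1056 of control 2, so these sums do not give the level of a typical cell.

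Gcg was the leading hormone of α-like cells in both mutant libraries. It took 14.2%, 16.4% and 11.6% of their UMIs, the last below the 13.9% of Ppy in control 2, with medians of 258, 473 and 669.5 UMIs per cell. The α-like class held 76.4%, 81.2% and 87.4% of each library's Gcg UMIs. Per UMI outside the hormones the log2 ratio to control 2 was -0.02 and 0.22, and per all UMIs 0.29 and 0.50, so the sign in mutant 1 depends on the scale.

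β-like cells held Gcg at 0.309%, 0.333% and 0.0173% of UMIs, which gave the largest ratio among the hormones, 4.16 and 4.27 on the log2 scale. Non-endocrine cells were at 0.320%, 0.240% and 0.204%, with log2 ratios of 0.65 and 0.24, but the single cells named above weigh heavily in the first and the last of these shares. At 500 UMIs per cell, 73.1%, 78.7% and 8.95% of β-like cells had a Gcg UMI, against 58.5%, 64.3% and 14.3% of non-endocrine cells. At this fixed depth the β-like share was below that of non-endocrine cells in control 2 and above it in the mutants. α-like cells were also 12.1% and 13.4% of cells in the mutants, against 2.72% in control 2. Before thinning, the β-like cells of control 2 had a median of 17344 UMIs and its non-endocrine cells 4677. The effect of this difference on the shares was not tested. In UMIs per cell β-like medians were 7, 13 and 2 and endothelial-like medians 3, 5 and 2. Summed markers of α cells without Gcg were at 0.0725%, 0.0810% and 0.213% of β-like UMIs, lower in the mutants. In α-like cells this sum was 0.738%, 0.985% and 0.755%, and values of its single markers are not given here. Summed markers of β cells were at 0.821%, 0.765% and 0.316% of β-like UMIs, higher in the mutants. This sum does not hold for each marker, as the log2 ratio was 1.24 and 1.09 for Ucn3 but -0.40 and -0.43 for Pcsk1. The paper, which also used the other control sample, reports lower Mafa, Nkx6-1, Pdx1 and Slc2a2 transcripts in mutant β cells. Here the mean β-like cell held 5.27, 7.33 and 4.41 Mafa UMIs and 3.16, 4.60 and 6.18 Nkx6-1 UMIs. For Slc2a2 the means were 0.558, 0.902 and 1.09. With median depths of 2932, 4602 and 17344 UMIs, the shares of these genes were higher in the mutants, opposite to the paper's direction. Pdx1 alone is not given here, and the reason for the difference was not tested. The part of free RNA in the Gcg of β-like cells was not tested.

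Sst was the mark of δ-like cells, which held 77.3%, 78.4% and 89.5% of its UMIs. Its share there was 2.23%, 2.96% and 4.87%, and the median was 39, 86 and 384 UMIs per cell. The mutant values lay below control 2, with log2 ratios of -1.12 and -0.72. In α-like cells 8.96%, 10.99% and 4.84% had an Sst UMI at 500 UMIs, against 7.32%, 14.3% and 3.90% of non-endocrine cells. Sst in β-like cells was at 0.0322%, 0.0330% and 0.00851%, beside 0.0192%, 0.0263% and 0.0106% in non-endocrine cells.

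The median δ-like cell held more Iapp than the median endothelial-like or α-like cell. The δ-like median was 63, 87 and 111 UMIs, against 25.5, 27 and 53 in endothelial-like cells and 25, 34 and 43 in α-like cells. At 500 UMIs per cell, Iapp passed the 95th percentile of the non-endocrine cells in 32.9%, 62.8% and 15.9% of δ-like cells. Iapp UMIs per Ins2 UMI were compared over cells with at least 50 insulin UMIs. The median δ-like cell had 0.703, 0.648 and 0.405, and the median endothelial-like cell 0.401, 0.358 and 0.238. The median β-like cell had 0.279, 0.237 and 0.104, below both. Some δ-like cells were also rich in insulin, with an upper quartile of 208, 305 and 1509 Ins2 UMIs.

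Ppy was concentrated in α-like cells, which held 73.4%, 70.9% and 78.9% of its UMIs. It took 3.34%, 2.91% and 13.9% of their UMIs, a log2 ratio of -2.06 and -2.26 to control 2. The median was 3, 3 and 80.5 Ppy UMIs per cell, and at 500 UMIs 39.8%, 37.4% and 80.6% of the cells passed the 95th percentile of the non-endocrine cells. Among Gcg, Sst, Ppy and Pyy, Ppy had the most UMIs in 58 of 357, 36 of 273 and 20 of 62 α-like cells. In Ppy-led α-like cells the median was 281, 495.5 and 3218.5 Ppy UMIs with 4.5, 6 and 2 Gcg UMIs, the latter at about the level of endothelial-like cells. In Gcg-led cells it was 309, 553 and 1085 Gcg UMIs with 2, 3 and 25 Ppy UMIs. Cells led by Gcg and cells led by Ppy thus both fell into the α-like class, and the Ppy-led share was highest in control 2.

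**Figure D4:**
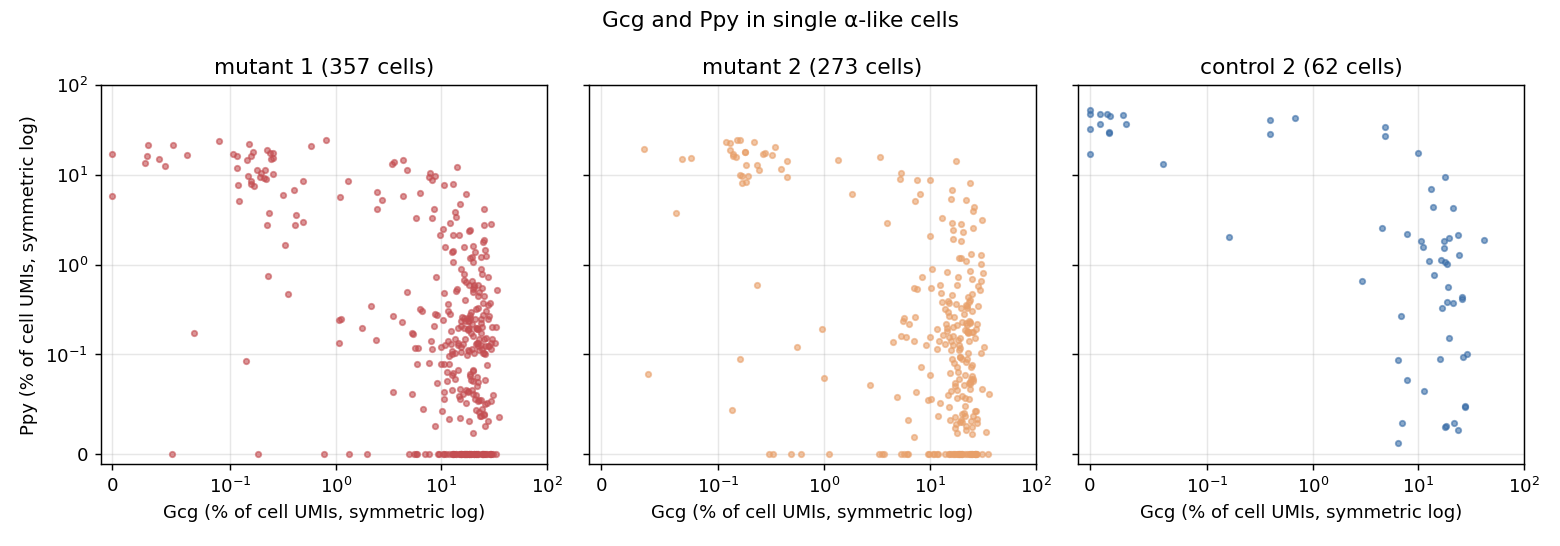
Gcg against Ppy (% of the UMIs of a cell, symmetric log scale) in single α-like cells, a panel per library with 357, 273 and 62 cells. Cells high in Gcg and cells high in Ppy form separate groups in each library, with some cells holding both.

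Pyy was in both groups and in δ-like cells. In Gcg-led α-like cells its median was 8, 12 and 163 UMIs, in Ppy-led ones 75.5, 131.5 and 593, and in Sst-led δ-like cells 12, 24 and 138. Endothelial-like medians were 0, 0 and 1. At 500 UMIs, 89.6%, 89.9% and 92.1% of δ-like cells had a Pyy UMI against 9.76%, 17.9% and 10.4% of non-endocrine cells. Ppy was in 71.7%, 69.8% and 71.4% of δ-like cells against 29.3%, 30.4% and 5.19%. Both peptides were thus found in a larger share of δ-like than of non-endocrine cells. Pyy passed the 95th percentile of the non-endocrine cells in 73.4%, 79.8% and 88.9% of δ-like cells, and Ppy in 39.9%, 50.4% and 71.4%. The part of free RNA and of doublets in these counts was not tested.

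Hormone combinations were counted after thinning every cell to 500 UMIs. A hormone was called above the free level where its count passed the 95th percentile of the non-endocrine cells of that library, which for Ppy was 1, 1.25 and 0.2 UMIs and for Gcg 3.95, 5 and 1, so that fewer UMIs sufficed in control 2. Of α-like cells, 65.8%, 67.8% and 98.4% were above it for 2 or more of insulin, Gcg, Sst, Ppy and Pyy. Gcg with Pyy was found in 48.2%, 47.6% and 69.4%, and all of Gcg, Ppy and Pyy in 22.4%, 20.1% and 54.8%. Gcg alone was found in 32.2%, 30.4% and 3.23%. The mutant libraries were alike in each of these and control 2 stood apart, with its lower free level and 62 cells. Non-endocrine cells, which set the level, had 1.22%, 3.57% and 1.30% with 2 or more.

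**Figure D5:**
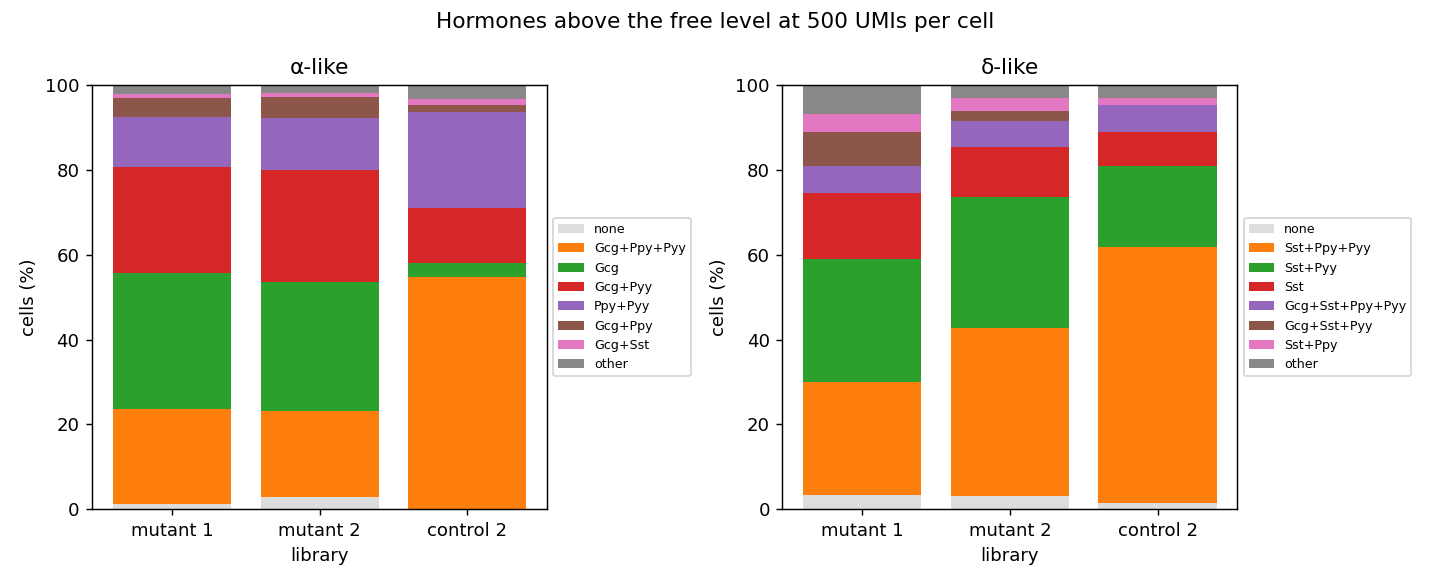
Share of α-like and δ-like cells (%) by which of Gcg, Sst, Ppy and Pyy were above the free level at 500 UMIs per cell, for each library. Gcg alone is found in 32.2% and 30.4% of the α-like cells of the mutant libraries and in 3.23% of those of control 2.

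Of δ-like cells, 78.0%, 90.7% and 96.8% were above the level for 2 or more, and 78.0%, 84.5% and 90.5% with insulin left out, a setting added after seeing the data. Sst with Pyy was found in 69.9%, 79.1% and 85.7%, Sst with Ppy in 37.6%, 49.6% and 68.3%, and Sst alone in 15.6%, 11.6% and 7.94%. Gcg with Sst was found in 16.8%, 10.1% and 6.35%. Of β-like cells, 5.53%, 4.78% and 1.71% were above for 2 or more of Gcg, Sst, Ppy and Pyy. The insulin call could not be used in mutant 1, where hormone-rich non-endocrine cells put its level at 296 of 500 UMIs and 0.247% of β-like cells passed, against 98.2% and 89.2% in the other two libraries.

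Counts of hormone pairs varied together within classes. Over α-like cells at 500 UMIs, Spearman's rho of Ppy and Pyy was 0.63, 0.59 and 0.56 and that of Gcg and Ppy -0.45, -0.33 and -0.69. Over δ-like cells, rho of Sst and Pyy was 0.48, 0.44 and 0.57. These are descriptions over 357, 273 and 62 α-like and 173, 129 and 63 δ-like cells. The cells share a library and a fixed total, so a high hormone lowers the room for the others. Over δ-like cells, rho of Ins2 was -0.55, -0.56 and -0.66 with Sst and -0.52, -0.45 and -0.70 with Pyy. How far cells rich in insulin raise the rho of Sst and Pyy was not tested.

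Other genes of the secretory pathway were set beside the hormones in β-like cells. Of 10 prohormone processing and granule genes, all above the CPM minimum, 6 were lower (Scg5, Pcsk1n, Pam, Chgb, Scg2 and Scg3) and 2 higher (Cpe and Chga), against backgrounds of 12.6% and 40.2%. Their median was -1.02 and -0.96, against 0.39 and 0.38 over all genes. Scg2, a granin, was at -1.75 and -1.33. Pcsk1, which cleaves proinsulin, was at -0.40 and -0.43 and Pcsk2, which cleaves proglucagon and proinsulin, at 0.16 and 0.15. Chga, the granin chromogranin A, was at 1.23 and 1.02 and Cpe, which trims cleaved peptides, at 0.71 and 0.61. With TMM scaling 7 were lower and none higher, against backgrounds of 32.8% and 14.4%. This list was not counted at 3000 to 6000 UMIs, where 2080 of all genes were lower and 645 higher. Of 20 other peptide genes 3 passed the CPM minimum. Ucn3, urocortin 3 of mature β cells, was at 1.24 and 1.09, while Nucb2 was at -2.36 and -2.36 and Pdyn at -2.02 and -1.83. Among those below the minimum, Cck had 1, 0 and 1750 UMIs and Cartpt 6, 3 and 573, whereas Nmu had 13, 10 and 4. With TMM scaling Cck passed the minimum and was lower.

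Each hormone had genes that followed it over 14 profiles of class and library with at least 20 cells. Among 8249 genes, Pcsk1 was most like Ins1 (Pearson's r = 0.96) and Ins2 (r = 0.96), and Ucn3 most like Iapp (r = 0.96). Sfrp5 was most like Gcg (r = 0.93), Ly6h most like Sst (r = 0.97), and Cntnap5b most like both Ppy (r = 0.95) and Pyy (r = 0.96). The profiles share libraries and depth, and the values are descriptions. Among the hormones themselves Ins1 and Ins2 (r = 0.98) and Ppy and Pyy (r = 0.96) were the most alike, whereas Ins1 and Gcg had r = -0.40.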

How the data were processed

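Islet cells of 2 Myt3IM/IM libraries and 1 control library were analysed. The methods, which describe inDrop-Seq, name DropEst for the count matrices. The deposited counts are whole UMI numbers for each gene in each cell, not normalized. The labels' processing notes list GRCm39 and Seurat, and the aligner and annotation are not given in the sources used here. The methods name filters of 500 uniquely mapping reads, 100 genes and 10% mitochondrial RNA. Applied here to UMIs, these removed 83, 5 and 25 barcodes of mutant 1, mutant 2 and control 2. Cells were clustered in scanpy 1.11.5 without the 7 hormone genes (counts scaled to 10000, 2000 variable genes, 30 components, 20 neighbours, Leiden resolution 0.5). A cluster was named from at least 3 markers found in at least 10% of its cells, with a rule set after the clusters were seen. Scrublet's own threshold called too few cells to be used, and doublets were not removed. Members and lists were chosen with earlier results of these data known. Named genes are the members, the lists of processing and peptide genes, and the 3 genes most like each member.

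UMIs were summed per class and library. Ratios used a prior count of 1 (numpy 2.4.6, Python 3.11.15), and the step was tested on simulated data. With 1 control library there is no test, and intervals at 95% (exact binomial, scipy 1.17.1) cover counting error only. Whether the libraries of a genotype came from separate animals is not stated in the labels. Alternatives covered the cell filter, clustering, doublet scores, depth, scaling (edgeR 4.0.16 TMM, DESeq2 1.42.0 size factors, R 4.3.3) and each mutant library left out.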

Additional observations from a re-analysis of the deposited data

How the results depend on the processing

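Values are the mean of the mutant libraries minus control 2, in percentage points for shares, unless said otherwise. The main values are -10.0 for the hormone share of β-like UMIs, -0.106 for Ins1 per Ins2, 4.21 (log2) for Gcg in β-like cells, 2.43 for the hormone share of non-endocrine UMIs, -31.6 and -12.5 for α-like and δ-like cells above the free level for 2 or more hormones, and 596 lower and 1902 higher genes. Without a filter on cells they were 2.22, -0.0285, 2.60 and, for α-like cells, 62.0, with 1152 lower and 830 higher genes. There the cluster with 1615 of the β-like cells of control 2 took the α-like name, which left 45 control β-like cells. At 3000 to 6000 UMIs the share was 11.9, the ratio -0.0805 and Gcg 2.97, with 2080 lower and 645 higher genes, and Ins2 (0.45), Ppy (-1.60) and Pyy (-0.29) changed sign. Gcg was at 4.57 when clustered with the hormones, 4.501 at a Leiden resolution of 1.0 and 3.89 per UMIs outside the hormones, and the hormone share was at -8.56 as a mean over cells. The non-endocrine share was at -0.382 in endothelial-like cells alone. It was at 5.38 without the 5% highest Scrublet scores, where control 2 went from 9.84% to 6.67%. Leaving out either mutant library put it between -1.98 and 6.85, with the sign changed without mutant 1. α-like cells with 2 or more hormones were at -26.5 with cells of at least 1000 UMIs, -19.6 thinned to 1000 UMIs and -23.2 with the highest non-endocrine cell as level, and δ-like cells at -4.55 and -4.63 under the last 2 of these, -6.13 without mutant 1 and -18.8 without mutant 2. Added after seeing the data, the 75th percentile gave -16.5 and, for δ-like cells, 1.34, and counts without thinning gave -19.1 and -3.09. Lower and higher genes numbered 1562 and 686 with TMM, 1266 and 744 with DESeq2 size factors, and 4397 and 8246 without a CPM minimum. By CPM without hormone and mitochondrial genes they numbered 1725 and 1635. The median gene was then at -0.20 and -0.22 with TMM. Apart from the construction of the unfiltered classes, the cause of these changes was not tested. No paired analysis was possible because control replicate 1 was not analysed, so the groups share a single replicate number.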
